A study of Homo sapiens with 18 samples.

Results

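RAB9A, SLC35D2, RNF167 and ENPP4 are 4 genes whose messenger RNA stood higher in LNCaP cells after every small interfering RNA (siRNA) against PARP1 or PARP2 than after the control siRNA. They were chosen on that very pattern, by name, with earlier results of these data known: all 8 libraries of PARP siRNA exceeded both libraries of control siRNA. They are 4 of 18350 features in the siRNA table and 4 of 21391 in the inhibitor table. Of 12701 genes of the siRNA table with a mean value of 1 or more, 786 met the same rule, a share of 6.19%, and 1087 met it in the opposite direction, 8.56%. Because the siRNA libraries chose the genes, their difference from the control siRNA is given below as a description with no test. The comparisons tested for the 4 genes are those that choice did not use. The lists of related genes below were not drawn up by that rule, and their calls against the control siRNA are given. Where such a gene also met the rule, its calls rest on the same libraries and are not separate support. Some other genes were named by their gap under the rule, by likeness to the 4 genes, or after their values were seen.

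LNCaP is an androgen-responsive human prostate cancer line. All 18 libraries came from it, as biological duplicates of 9 groups, and were sequenced from total RNA extracts. In the inhibitor experiment, cells received for 24 h the DMSO vehicle or 10 uM of UPF1069, olaparib or veliparib. Olaparib and veliparib inhibit both PARP1 and PARP2, and UPF1069 is known as an inhibitor with a preference for PARP2. For knockdown, the cells were harvested 72 h after transfection with siNC, the control siRNA, or with 1 of 4 siRNAs against a PARP: siPARP1-A, siPARP1-B, siPARP2-A and siPARP2-B, a pair of sequences for each target. Each experiment has its own table, normalised apart from the other, so DMSO and siNC differ in transfection, in time and in table.

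PARP1 and PARP2 are nuclear enzymes that bind damaged DNA and attach ADP-ribose chains to proteins with NAD as the donor. RAB9A is a small GTPase of late endosomes that returns mannose 6-phosphate receptors to the trans-Golgi network. SLC35D2 carries nucleotide sugars into the Golgi lumen for glycan synthesis. RNF167 is a membrane-bound RING ubiquitin ligase of endosomes and lysosomes, and ENPP4 is a cell-surface ectonucleotidase that hydrolyses the dinucleotide Ap3A, a platelet-aggregating activity on endothelium.

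In GENCODE v29 (GRCh38), RAB9A (ENSG00000123595) is on the plus strand of chromosome X at 13689125 to 13710506. SLC35D2 (ENSG00000130958) is on the minus strand of chromosome 9 at 96313444 to 96383710. RNF167 (ENSG00000108523) is on the plus strand of chromosome 17 at 4940008 to 4945222, and ENPP4 (ENSG00000001561) is on the plus strand of chromosome 6 at 46129993 to 46146699. All are protein-coding. The exons of RNF167 share 244 bases with those of SLC25A11 on the opposite strand, and those of SLC35D2 share 1794 bases with the annotated gene AL160269.1 on the same strand. The counting's use of strand is not given in the sources used here, so reads in the bases shared with SLC25A11 cannot be assigned with certainty. For SLC35D2 and AL160269.1, on the same strand, the use of strand would not settle it. This limit holds for all SLC35D2 values below.

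The promoters are shown because these genes were grouped for moving together, so that the start regions can be compared letter by letter. RefSeq (GRCh38.p14) windows of 300 bases around the transcription start matched 3 of the 4 genes; ENPP4 had no entry. Capitals mark the GC box GGGCGG on either strand (written CCGCCC where it lies on the other strand) or the palindrome CTCGCGAG. The windows are chrX:13688878-13689177 (plus strand) for RAB9A, chr9:96383662-96383961 (minus strand) for SLC35D2 and chr17:4940018-4940317 (plus strand) for RNF167.
RAB9A: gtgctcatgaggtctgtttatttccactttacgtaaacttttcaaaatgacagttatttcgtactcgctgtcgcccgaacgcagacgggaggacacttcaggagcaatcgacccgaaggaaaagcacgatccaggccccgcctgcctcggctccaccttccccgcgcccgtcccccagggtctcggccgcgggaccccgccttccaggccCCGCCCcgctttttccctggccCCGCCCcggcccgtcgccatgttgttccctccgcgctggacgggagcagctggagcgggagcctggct
SLC35D2: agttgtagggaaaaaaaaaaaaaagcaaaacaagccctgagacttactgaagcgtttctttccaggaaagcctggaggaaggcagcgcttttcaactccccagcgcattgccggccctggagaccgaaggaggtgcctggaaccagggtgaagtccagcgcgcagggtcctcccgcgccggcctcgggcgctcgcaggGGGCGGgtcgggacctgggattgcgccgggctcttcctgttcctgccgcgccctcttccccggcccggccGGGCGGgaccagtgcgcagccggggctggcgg
RNF167: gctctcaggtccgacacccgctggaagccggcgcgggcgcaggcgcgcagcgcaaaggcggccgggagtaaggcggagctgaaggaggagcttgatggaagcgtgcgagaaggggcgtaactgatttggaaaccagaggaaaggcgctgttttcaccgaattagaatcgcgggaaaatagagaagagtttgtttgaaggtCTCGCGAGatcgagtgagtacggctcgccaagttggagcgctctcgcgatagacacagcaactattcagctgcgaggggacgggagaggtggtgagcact
In G and C, RAB9A with 64.3% and SLC35D2 with 65.7% lie above the median of 58.7% over 35116 such windows. RNF167 with 59.0% lies near that median. In the order RAB9A, SLC35D2 and RNF167, the windows hold 29, 26 and 29 CG steps, against a median of 14. These are at the percentiles 75.8, 69.9 and 75.8 of all windows. RAB9A and SLC35D2 each hold 2 GC boxes, a motif found in 45.0% of all windows, while the RNF167 window holds none. RNF167 holds 1 CTCGCGAG, found in 1.02% of windows and absent from the other 2. A second RefSeq window of RNF167, chr17:4939842-4940141, overlaps the one shown and holds none of the motifs searched, with 73.0% G and C. CCAAT (34.6% of windows), TATAAA (11.5%) and CACGTG (7.26%), each searched on both strands, are in none of these windows. None of the motifs searched is in all 3 windows.

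The libraries held 26.43 to 35.7 M recovered reads (M, reads times 1e6) in the inhibitor table and 15.45 to 18.62 M in the siRNA table. PARP1 fell to 1.12% of its siNC mean with siPARP1-A and to 1.94% with siPARP1-B. It stood at 86.4% with siPARP2-A and at 32.8% with siPARP2-B, so 1 PARP2 sequence came with a low PARP1 level too. PARP2 was at 10.3% with siPARP2-A and 5.11% with siPARP2-B, and at 78.4% and 69.0% with the PARP1 sequences. All 9 luminal prostate markers had a mean of 1 or more, with summed levels of 2430 to 4868 and 1735 to 6044 in the inhibitor and siRNA tables. KRT14 was the basal marker with a row, at no more than 0.929; KRT5 and TP63 had none. Immune markers summed to at most 0.313, stromal markers to 13.4 to 18.1 and 1.94 to 9.19, and VWF, the endothelial marker with a row, ranged from 5.39 to 11.3 and from 0.967 to 8.51. The part of the last 2 lists in the results was not tested. In bulk RNA, fewer cells of a kind and less RNA per cell cannot be told apart.

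RAB9A, the late endosomal GTPase, was separated most from siNC of the 4 genes. Its normalised level, on the scale of counts per 1e6 reads (CPM), was 12.2 and 13.2 in the siNC libraries. It was 53.9 and 54.3 with siPARP1-A, 54.6 and 55.6 with siPARP1-B, 46.0 and 49.6 with siPARP2-A, and 57.3 and 57.5 with siPARP2-B. The 8 PARP siRNA libraries thus lay in a narrow band far above both controls, whichever PARP was targeted. As a ratio of means, the 4 sequences stood at 4.27, 4.35, 3.77 and 4.53 times siNC. The siNC values rested on 188 and 229 reads and the others on 752 to 1021. The lowest PARP siRNA value was 3.50 times the highest siNC value, which was rank 1 among the 12701 tested genes. For this ratio, siNC values worth less than 3 reads, found in 12 genes, were set to 3 reads.

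SLC35D2, the nucleotide sugar transporter of the Golgi, read 10.1 in both siNC libraries. It was 47.8 and 50.5 with siPARP1-A, 29.0 and 32.3 with siPARP1-B, 33.9 and 38.1 with siPARP2-A, and 35.4 and 37.3 with siPARP2-B. Every PARP siRNA library stood well clear of siNC, and siPARP1-A stood apart above the other 3 sequences. The ratios of means to siNC were 4.86, 3.03, 3.56 and 3.59 for siPARP1-A, siPARP1-B, siPARP2-A and siPARP2-B. Its gap of 2.86 between the lowest PARP siRNA and the highest siNC value was the third by size.

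RNF167, the endosomal ubiquitin ligase, measured 43.1 and 41.9 with siNC, 126.4 and 117.7 with siPARP1-A, 107.3 and 108.4 with siPARP1-B, 128.0 and 136.3 with siPARP2-A, and 187.4 and 205.7 with siPARP2-B. The libraries of siPARP2-B lay above all others, and those of the other 3 sequences stood closer together and still well above siNC. The ratios of means to siNC were 2.87, 2.54, 3.11 and 4.62 in the same order. Its gap was 2.49, rank 4.

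ENPP4, the ectonucleotidase, was separated least. Its siNC libraries read 30.6 and 26.5, against 80.6 and 85.0 with siPARP1-A, 47.5 and 50.0 with siPARP1-B, 54.1 and 56.8 with siPARP2-A, and 67.6 and 69.2 with siPARP2-B. The 4 PARP sequences did not overlap with one another, and siPARP1-B came nearest to siNC. The ratios of means were 2.90, 1.71, 1.94 and 2.40. Its gap was 1.55, rank 52 of the tested genes.

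On the log2(value + 1) scale these differences from siNC were 2.01, 2.04, 1.84 and 2.10 for RAB9A and 2.17, 1.51, 1.73 and 1.75 for SLC35D2, in the order siPARP1-A, siPARP1-B, siPARP2-A, siPARP2-B. For RNF167 they were 1.50, 1.32, 1.61 and 2.18, and for ENPP4 1.51, 0.75, 0.94 and 1.23. All 4 contrasts share the same 2 siNC libraries. In limma fits over the whole table, genes higher than siNC at an adjusted p below 0.05 made up 25.5%, 16.4%, 24.5% and 30.9% of genes for the 4 sequences, and genes lower 28.9%, 23.9%, 24.9% and 35.2%; nothing is read from these shares about the genes chosen on the contrast.

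**Figure D1:**
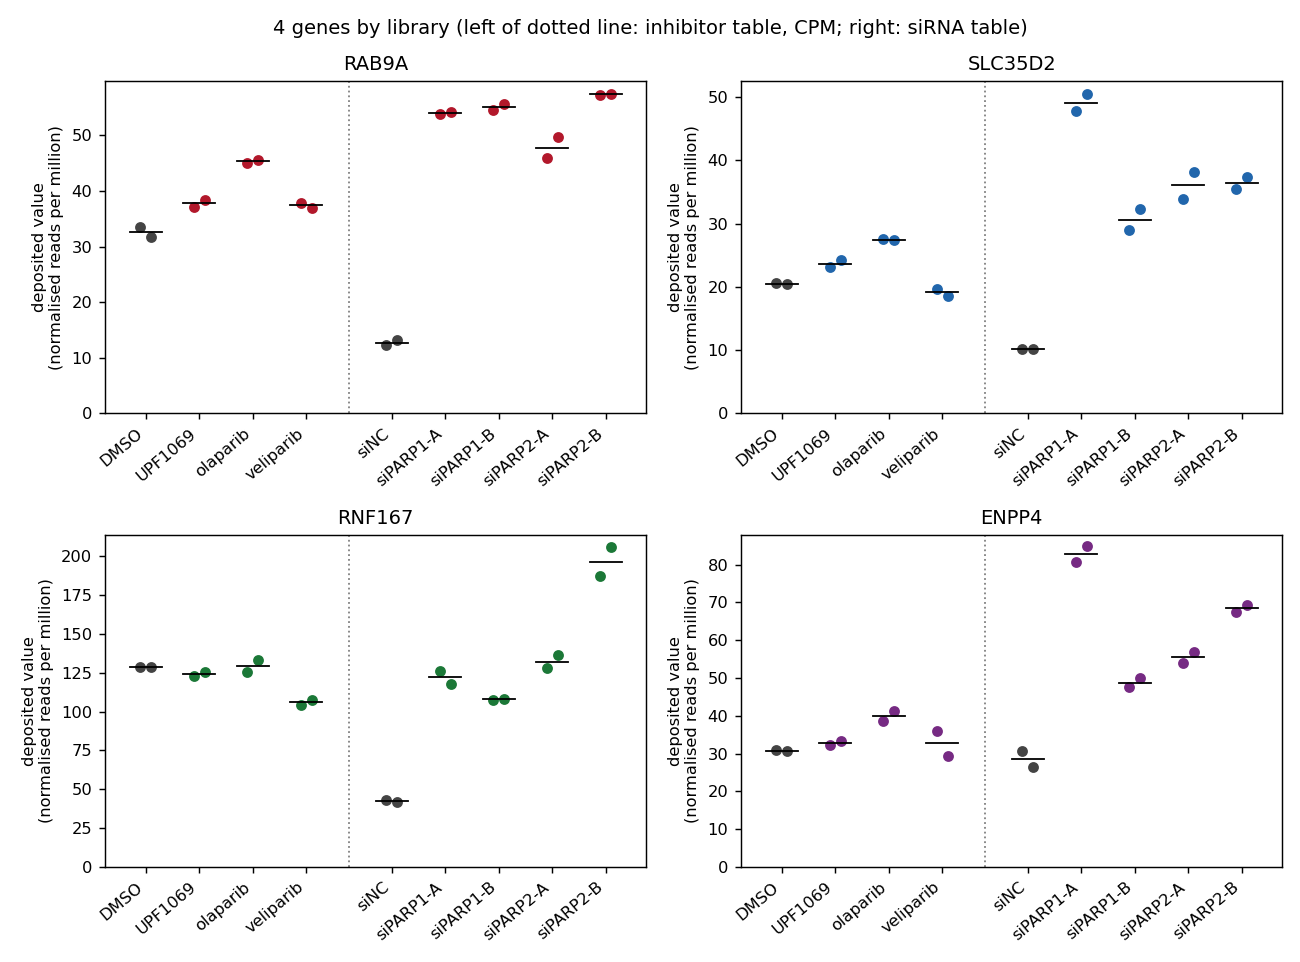
Deposited normalised value of each gene (vertical axis, CPM scale) in each of the 18 libraries (points) with the mean of each group (bar); the inhibitor table is left of the dotted line and the siRNA table right of it. The siNC points are the lowest of the siRNA table in each panel, and for RAB9A, SLC35D2 and RNF167 they also lie below the DMSO points, while for ENPP4 the siNC points (30.6 and 26.5) lie next to the DMSO points (30.8 and 30.7).

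Other genes with a wide gap show how the 4 sit in the table. In 11 genes, the lowest PARP siRNA value was at least 2 times the highest siNC value. The 10 with a symbol and the largest gaps were RAB9A, MT1G (3.40), SLC35D2, RNF167, CCDC102B (2.49), MAL2 (2.44), CCDC83 (2.24), MT1F (2.22), CUZD1 (2.21) and DCXR-DT (2.06), and the other was MT2A (2.02). MT1G, MT1F and MT2A encode metallothioneins, which bind zinc and copper. CCDC102B, CCDC83 and DCXR-DT had siNC values under 1, so their gaps rest on few reads. At the threshold, PRKY was just inside, with 2.930 as its lowest PARP siRNA value and 2.929 as its highest siNC value, and MRPS28 was just outside, with 49.216 and 49.219.

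**Figure D2:**
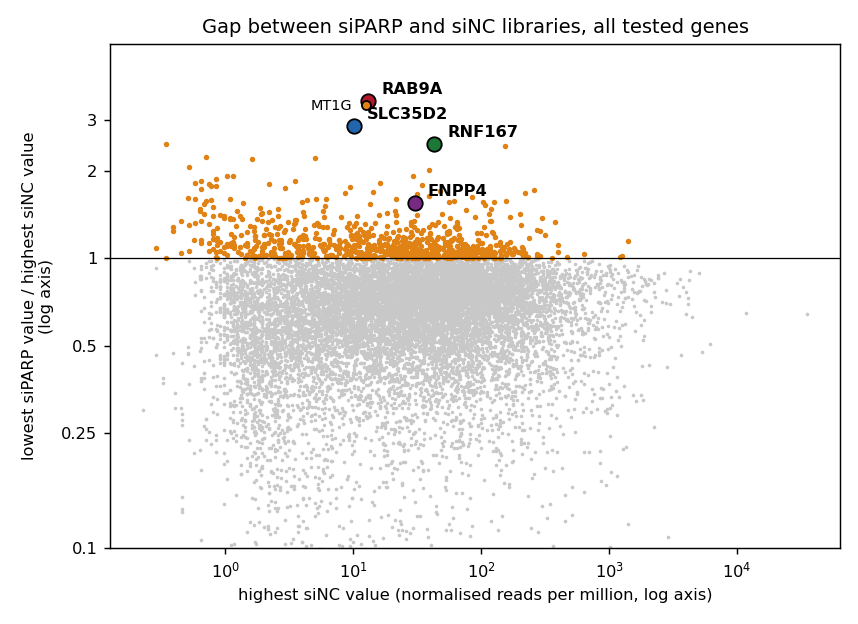
Highest siNC value (horizontal log axis) against the lowest PARP siRNA value divided by it (vertical log axis) for tested genes; orange points meet the rule and grey points do not. RAB9A, SLC35D2 and RNF167 lie at the upper edge with ratios of 3.50, 2.86 and 2.49, MT1G lies beside RAB9A at 3.40, and ENPP4 lies at 1.55 among many others; 12 genes with siNC values under 3 reads are not drawn and 126 lie below the axis.

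The DMSO libraries of the inhibitor experiment, from cells given the vehicle, give a second reference beside siNC, and the 4 genes split against it. For this, values were rescaled to a CPM scale over the genes in both tables. With DMSO, RAB9A read 33.6 and 31.6, while siNC read 11.6 and 12.8 and the PARP siRNA libraries 44.4 to 61.8 with a median of 55.2. The siNC mean was 37.4% of DMSO and the PARP siRNA mean 167% of it. RAB9A therefore lay below DMSO with the control siRNA and above it with every PARP siRNA. SLC35D2 showed the same order: 20.7 and 20.3 with DMSO, 9.60 and 9.85 with siNC, and 29.1 to 51.4 with a median of 37.1 with the PARP siRNAs. Its siNC mean was 47.4% of DMSO and its PARP siRNA mean 188%.

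RNF167 and ENPP4 sat at opposite ends. RNF167 read 129.6 and 128.4 with DMSO, 40.9 in both siNC libraries, and 107.6 to 220.1 with a median of 126 with the PARP siRNAs. Its siNC mean was 31.7% of DMSO, while its PARP siRNA mean, 110.4%, was near the DMSO level and the PARP siRNA libraries lay on both sides of it. ENPP4 read 31.0 and 30.6 with DMSO, 29.0 and 25.9 with siNC, and 47.6 to 86.5 with a median of 63.2 with the PARP siRNAs. Its siNC mean was 89.1% of DMSO and its PARP siRNA mean 210.8%. For ENPP4 the PARP siRNA libraries stood farther from DMSO than siNC did. For RNF167 siNC stood away below DMSO and siPARP2-B away above it (202.0 and 220.1), while the other 3 PARP siRNAs read 107.6 to 129.4.

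Set against all 12275 genes tested in both tables, the log2(value + 1) difference of siNC from DMSO was -1.35 for RAB9A, -1.004 for SLC35D2, -1.63 for RNF167 and -0.16 for ENPP4. The median gene stood at -0.18, and 5% to 95% of genes spanned -1.80 to 0.94. These values placed RAB9A at the percentile 10.1, SLC35D2 at 17.4, RNF167 at 6.40 and ENPP4 at 50.8, and 1238, 2130, 785 and 6235 genes lay lower. The PARP siRNA mean differed from DMSO by 0.71, 0.85, 0.09 and 1.02 in the same gene order, at percentiles 89.6, 93.3, 61.3 and 96.3, beside a median gene of -0.13. Scaling by TMM over all 18 libraries moved the median gene to 0.01 in both differences. Relative to the median gene, siNC stood at -1.17 for RAB9A, -0.82 for SLC35D2, -1.45 for RNF167 and 0.02 for ENPP4, and with TMM at -1.16, -0.82, -1.44 and 0.03. The PARP siRNA mean relative to the median gene was 0.84, 0.98, 0.22 and 1.14. The direction for ENPP4 with siNC thus turned with the scaling, and that of the other 3 did not. Transfection, 72 h against 24 h of culture and the separate tables cannot be told apart from an action of siNC itself.

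The same comparison over whole groups of genes gives a background for the split. Of the 12275 genes, 2151 (17.5%) had a siNC level at least 1 log2 unit below DMSO. In 11 of these (0.511%), the mean of the PARP siRNAs was at or above DMSO: BIRC3, CD83, MT1X, MT2A, PDE4D, RAB9A, RNF128, RNF167, SLC35D2, SLPI and TMEM134. That definition was set after the values of the 4 genes had been seen, and 3 of them are in the list. Among the 756 genes that met the selection rule and were tested in both tables, the median siNC difference from DMSO was -0.42 and the median PARP siRNA difference 0.19. Of these 756, 171 (22.6%) had siNC at least 1 log2 unit below DMSO, and 73 (9.66%) had the PARP siRNA mean at least 1 above it. Over all 12275 genes, the PARP siRNA mean was at least 1 above DMSO in 490 (3.99%). The rule sets the PARP siRNA libraries above siNC, which by itself favours a lower siNC difference and a higher PARP siRNA difference.

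**Figure D3:**
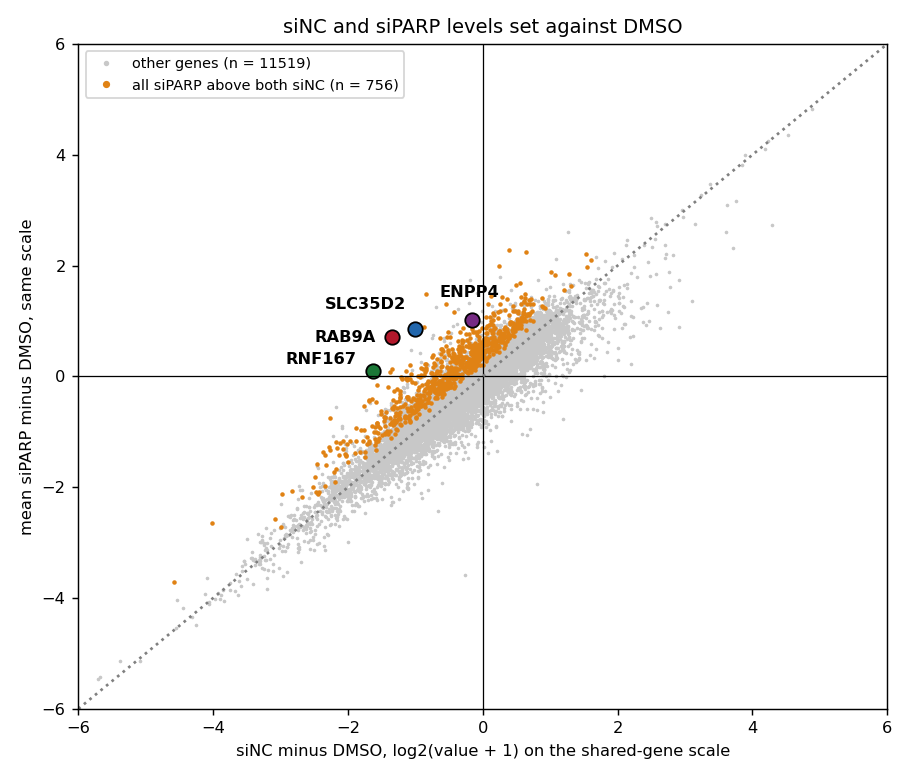
Difference of siNC from DMSO (horizontal axis) and of the PARP siRNA mean from DMSO (vertical axis), both in log2(value + 1) after rescaling over shared genes, for 12275 genes; orange points meet the selection rule, the dotted line marks equal differences, and 3 genes lie beyond the axes. RNF167 lies to the left near the horizontal zero line (-1.63, 0.09), ENPP4 near the vertical zero line (-0.16, 1.02), and RAB9A and SLC35D2 lie between them, to the left and above.

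Levels of the 4 genes can be compared with one another per unit of transcript length. By union exon length (2039 bases for RAB9A, 1980 for SLC35D2, 2141 for RNF167 and 4651 for ENPP4), the rescaled DMSO level per kilobase was 60.2 for RNF167, 16.0 for RAB9A, 10.4 for SLC35D2 and 6.62 for ENPP4. With siNC it was 19.1, 5.98, 4.91 and 5.90. RNF167 stayed first in both controls, while the other 3 genes came within a narrow range with siNC. With siPARP2-B, the level per kilobase was 98.6 for RNF167, 30.2 for RAB9A, 19.7 for SLC35D2 and 15.8 for ENPP4.

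The inhibitor libraries were not used in the selection. Olaparib raised RAB9A, SLC35D2 and ENPP4, UPF1069 raised RAB9A and SLC35D2, and veliparib raised RAB9A and lowered RNF167. The largest difference of an inhibitor from DMSO was 0.46 on the log2 scale, for RAB9A with olaparib. The smallest difference of a PARP siRNA from siNC was 0.75, in the contrast on which the genes were chosen. That choice favours large differences from siNC, so the sizes cannot be ranked. They also come from separate tables and were not tested against each other. RAB9A read 33.4 and 31.7 CPM with DMSO, 37.1 and 38.5 with UPF1069, 45.0 and 45.6 with olaparib, and 37.9 and 36.9 with veliparib. All 6 inhibitor libraries were above both DMSO libraries, with olaparib the highest. The limma log2 differences from DMSO were 0.46 with olaparib (95% interval 0.36 to 0.57, Benjamini-Hochberg adjusted p = 1.31e-07), 0.21 with UPF1069 (0.10 to 0.32, adjusted p = 0.0054) and 0.19 with veliparib (0.09 to 0.30, adjusted p = 0.0051). The UPF1069 call ended without DMSO replicate 2 (adjusted p = 0.101) or UPF1069 replicate 2 (0.0913). The veliparib call ended without DMSO replicate 2 (0.0847) and with a correction for GC content and length (log2 0.11, adjusted p = 0.0968).

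SLC35D2 read 20.6 and 20.4 CPM with DMSO, 23.0 and 24.3 with UPF1069, 27.5 and 27.3 with olaparib, and 19.7 and 18.6 with veliparib. Olaparib and UPF1069 libraries lay above DMSO and veliparib libraries below it. By limma, olaparib raised it by 0.40 on the log2 scale (0.28 to 0.53, adjusted p = 9.56e-06) and UPF1069 by 0.20 (0.07 to 0.33, adjusted p = 0.0218). With veliparib the difference was -0.10 (-0.22 to 0.03, adjusted p = 0.224), which did not pass. The UPF1069 call ended with DESeq2 (adjusted p = 0.0641) and when either library of DMSO or UPF1069 was left out (0.0595 to 0.208).

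RNF167 read 129.0 and 128.8 CPM with DMSO, 123.0 and 125.3 with UPF1069, 125.7 and 133.5 with olaparib, and 104.3 and 107.7 with veliparib. The veliparib libraries lay below all the others, the UPF1069 libraries lay below both DMSO libraries, and the olaparib libraries lay on either side of DMSO. The limma log2 difference was -0.28 with veliparib (-0.37 to -0.19, adjusted p = 1.29e-05), 0.01 with olaparib (-0.08 to 0.09, adjusted p = 0.897) and -0.05 with UPF1069 (-0.14 to 0.03, adjusted p = 0.383). Across genes, the veliparib difference ran with GC content (Spearman rho -0.689 over 13075 genes), and RNF167 has 56.0% G and C in its longest transcript. With the correction for GC content and length, the difference was -0.13 (adjusted p = 0.00412).

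ENPP4 read 30.8 and 30.7 CPM with DMSO, 32.3 and 33.2 with UPF1069, 38.7 and 41.3 with olaparib, and 36.1 and 29.4 with veliparib. Olaparib stood above every other library, and the veliparib libraries disagreed, one above and one below DMSO. The limma log2 difference with olaparib was 0.37 (0.22 to 0.51, adjusted p = 1.28e-04). With UPF1069 it was 0.09 (-0.06 to 0.23, adjusted p = 0.389) and with veliparib 0.08 (-0.07 to 0.22, adjusted p = 0.389), neither of which passed. Without veliparib replicate 2 the veliparib difference was 0.22 (adjusted p = 6.01e-04), and with the GC and length correction the UPF1069 difference was 0.16 (0.0133).

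Counted against the whole table, 2 of the 4 genes were higher with UPF1069, where 10.3% of 13337 genes were higher and 14.0% lower. With olaparib 3 of 4 were higher, where 25.8% of genes were higher and 26.8% lower. With veliparib 1 was higher and 1 lower, where 17.2% of genes were higher and 23.2% lower. The same 2 DMSO libraries serve all 3 comparisons.

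**Figure D4:**
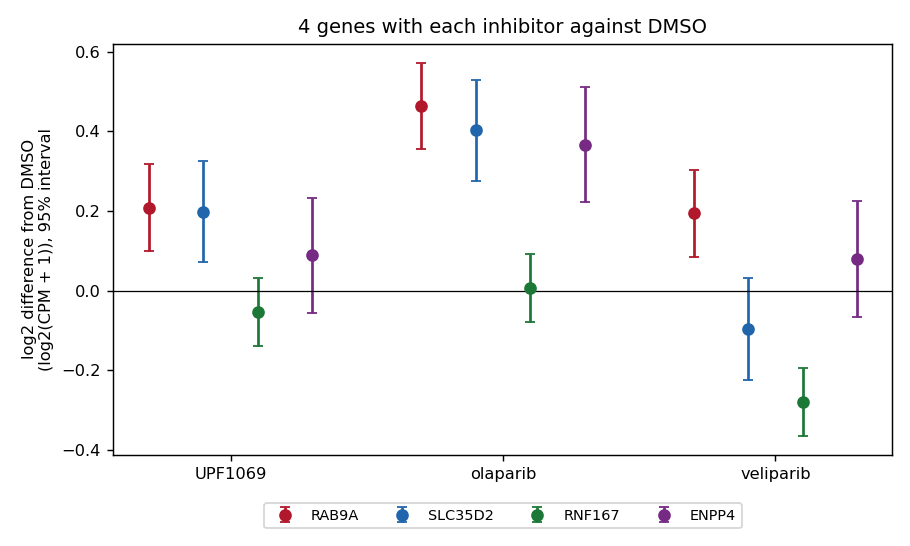
Log2 difference of each gene from DMSO in log2(CPM + 1) (vertical axis) for each inhibitor (horizontal axis), with the limma 95% interval as the bar and 2 libraries per group. The olaparib intervals of RAB9A, SLC35D2 and ENPP4 lie wholly above 0, RNF167 with veliparib lies wholly below 0, and the highest point is RAB9A with olaparib at 0.46.

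At the same dose and time, olaparib separated from the other inhibitors at most of the 4 genes. Olaparib exceeded veliparib at all 4, by limma log2 differences of 0.50 for SLC35D2 (adjusted p = 3.63e-07), 0.29 for RNF167 (3.18e-06), 0.27 for RAB9A (1.22e-04) and 0.29 for ENPP4 (0.00118), in a comparison where 59.5% of genes differed. UPF1069 was below olaparib, at a log2 difference of -0.26 for RAB9A (adjusted p = 3.20e-04), -0.20 for SLC35D2 (0.00826) and -0.28 for ENPP4 (0.00211). For RNF167 the difference was -0.06 with an interval of -0.15 to 0.02 (0.228). In that comparison 51.2% of genes differed. UPF1069 exceeded veliparib by 0.29 for SLC35D2 (adjusted p = 3.94e-04) and by 0.23 for RNF167 (9.77e-05), with 50.8% of genes different. For RAB9A the UPF1069 difference from veliparib was 0.01 (-0.09 to 0.12, adjusted p = 0.835) and for ENPP4 0.01 (-0.13 to 0.15, adjusted p = 0.918).

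Some of these calls ended under an alternative with the difference near its size. The SLC35D2 difference of UPF1069 from olaparib was -0.20 with DESeq2 (adjusted p = 0.0559), -0.17 without UPF1069 replicate 1 (0.102) and -0.20 without olaparib replicate 1 (0.0523). That of ENPP4 was -0.23 without olaparib replicate 2 (0.0509). The ENPP4 difference of UPF1069 from veliparib was 0.15 without veliparib replicate 1 (adjusted p = 0.0220) and -0.13 without veliparib replicate 2 (0.0398). Over 13075 genes, the UPF1069 difference from veliparib ran with GC content (Spearman rho 0.635), and the olaparib difference from veliparib did so less (0.333). With the correction for GC content and length, UPF1069 against veliparib gave 0.15 for RAB9A (adjusted p = 0.0138) and 0.18 for ENPP4 (0.00447). For RNF167 it gave 0.08 (0.0472) in place of 0.23. UPF1069 against olaparib gave -0.10 for RNF167 with this correction (0.00855).

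The 2 PARP targets could be compared directly without siNC, in libraries that the selection used but in a contrast that it did not. RNF167 was higher with the PARP2 sequences than with the PARP1 sequences, by a log2 difference of 0.49 between their means (limma 95% interval 0.39 to 0.58, adjusted p = 8.58e-10). The sequences were uneven in this: from siNC, siPARP2-A stood at 1.61, near siPARP1-A at 1.50, and siPARP2-B, which also had PARP1 at 32.8% of siNC, stood at 2.18. The intervals and p-values of this contrast rest on the spread between duplicate libraries. They do not cover variation between sequences against the same target, so a difference between the targets themselves was not tested. RAB9A differed by -0.06 (-0.17 to 0.05, adjusted p = 0.333), SLC35D2 by -0.10 (-0.22 to 0.03, adjusted p = 0.157) and ENPP4 by -0.05 (-0.15 to 0.06, adjusted p = 0.463), none of which passed. Thus 1 of 4 genes differed in a contrast where 65.5% of all genes did. With the correction for GC content and length, RAB9A stood at -0.11 (adjusted p = 0.0488) and SLC35D2 at -0.15 (0.0192).

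Sequences against the same target also differed. The siPARP1-B level was below siPARP1-A at ENPP4 by a log2 difference of -0.75 (limma 95% interval -0.90 to -0.60, adjusted p = 4.73e-09) and at SLC35D2 by -0.67 (-0.84 to -0.49, adjusted p = 4.31e-07). At RNF167 the difference was -0.18 (-0.31 to -0.05, adjusted p = 0.0213), and at RAB9A 0.03 (-0.13 to 0.18, adjusted p = 0.784). Of all genes, 54.8% differed between these sequences. The level of ENPP4 with siPARP1-A was 1.70 times that with siPARP1-B, and that of SLC35D2 1.61 times. PARP1 itself was at 1.12% of siNC with siPARP1-A and 1.94% with siPARP1-B, and its part in these values was not tested. The RNF167 call ended with DESeq2 (adjusted p = 0.0521), with the GC and length correction (0.0685), and without siPARP1-A replicate 1 (0.208), siPARP1-B replicate 1 (0.0864) or siPARP1-B replicate 2 (0.0640).

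The siPARP2-B level was above siPARP2-A at RNF167 by 0.57 (limma 95% interval 0.44 to 0.70, adjusted p = 2.14e-08), at ENPP4 by 0.30 (0.15 to 0.45, adjusted p = 0.00105) and at RAB9A by 0.26 (0.11 to 0.41, adjusted p = 0.00359). SLC35D2 differed by 0.01 (-0.16 to 0.19, adjusted p = 0.888). Here 64.8% of all genes differed. The PARP1 level also differed between these sequences, 86.4% and 32.8% of siNC, and its part in these values was not tested. The RAB9A call ended without siPARP2-A replicate 1 (adjusted p = 0.0605) and its difference was 0.41 with the GC and length correction.

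The 4 genes ran together over the 10 siRNA libraries, and most pairs did so less over the 8 that leave out siNC. The selection had put both siNC libraries below the other 8 for each gene, which by itself raises r over the 10. As a description, the Pearson r of log2 levels was 0.95 between RAB9A and SLC35D2, 0.92 between RAB9A and RNF167, 0.88 between RNF167 and SLC35D2, and 0.96 between ENPP4 and SLC35D2. ENPP4 had 0.87 with RAB9A and 0.86 with RNF167. Without the 2 siNC libraries, the 8 PARP siRNA libraries gave 0.05, 0.35 and 0.06 for the first 3 pairs and 0.92 for ENPP4 with SLC35D2, with 0.29 and 0.35 for the last 2. ENPP4 and SLC35D2 were thus ordered alike among the PARP siRNAs themselves, both highest with siPARP1-A and lowest with siPARP1-B. Over the 8 inhibitor libraries, r was 0.79 for RAB9A with SLC35D2, 0.87 for RAB9A with ENPP4 and 0.78 for SLC35D2 with ENPP4, and RNF167 had 0.11 with RAB9A, 0.65 with SLC35D2 and 0.24 with ENPP4. The libraries of a table share a normalisation and come in groups of 2.

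Genes of the whole table that ran closest to each of the 4 were named by the same measure. Over the 10 siRNA libraries these were MARS (0.98), HIPK3 (0.98) and CD46 (0.96) for RAB9A, and HBS1L (0.99), VPS4A (0.98) and C5orf28 (0.98) for SLC35D2. For RNF167 they were MAL2, CARS and GARS (0.98 each), and for ENPP4 VPS4A (0.98), TMX1 (0.97) and CD163L1 (0.97). MARS, CARS and GARS encode aminoacyl-tRNA synthetases, and VPS4A is an ATPase of endosomal sorting. Over the 8 inhibitor libraries, they were RIOK3, KIAA1147 and ATP5S for RAB9A, MST1 and PEX7 (of the 3 closest) for SLC35D2, EHMT2, PSMF1 and RAB1A for RNF167, and STK38L, TM2D1 and LAMTOR3 for ENPP4, with r of 0.98 or more. No gene was among the 3 closest in both tables for any of the 4. The r over the 10 siRNA libraries includes the step from siNC on which the 4 genes were chosen.

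Genes that act with RAB9A were called in both directions. Of 25 tested genes of retrieval from late endosomes to the Golgi, limma calls against siNC were 7 higher and 10 lower with siPARP1-A, 3 and 4 with siPARP1-B, 6 and 6 with siPARP2-A, and 10 and 7 with siPARP2-B. In the same order, 25.5%, 16.4%, 24.5% and 30.9% of all tested genes were higher and 28.9%, 23.9%, 24.9% and 35.2% lower. The median log2 differences were -0.02, 0.02, -0.05 and 0.05, beside -0.01, -0.03, 0.00 and -0.03 over all genes. M6PR, the cation-dependent mannose 6-phosphate receptor that RAB9A returns, met the selection rule with siNC values of 72.8 and 78.0. It rose with siPARP1-A (log2 0.52, adjusted p = 1.52e-07), siPARP2-A (0.52, adjusted p = 2.47e-07) and siPARP2-B (0.87, adjusted p = 7.08e-12) and stood at 0.12 with siPARP1-B (adjusted p = 0.142). IGF2R, the larger mannose 6-phosphate receptor, fell with siPARP1-A (-1.01), siPARP2-A (-0.57) and siPARP2-B (-1.004) and rose with siPARP1-B (0.29).

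Further members of that list went both ways. RABEPK, an effector of RAB9, met the rule and rose by 0.23, 0.58 and 0.30 with siPARP1-A, siPARP2-A and siPARP2-B, while GCC2, a Golgi tether for RAB9 vesicles, fell by 0.99 with siPARP1-A and by 0.74 with siPARP2-A on the log2 scale. GCC2 and RAB7A met the rule in the opposite direction. RAB9B, the close relative of RAB9A, rose with siPARP1-A (0.80) and not with the other sequences (0.28, -0.17 and 0.26). With olaparib, 16 of the 25 genes were higher and 3 lower, where 25.8% and 26.8% of all genes were, with a median of 0.13 beside 0.00 over all genes. HPS1 and VTI1A (0.34 each) rose most. RHOBTB3 (-0.24) and PLIN3 (-0.20) fell most. UPF1069 gave 3 higher (10.3% of all genes), led by SNX1 (0.27) and STX16 (0.18), and 1 lower (14.0%), RABEPK (-0.28). With veliparib, where 17.2% of all genes were higher and 23.2% lower, the list gave 4 higher, led by GCC2 (0.53) and IGF2R (0.30), and 4 lower, led by VPS51 (-0.47) and PLIN3 (-0.30).

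The relatives of SLC35D2, transporters of the Golgi and endoplasmic reticulum, were called in both directions against siNC. Of 19 tested SLC35 relatives, none met the selection rule upward and SLC35A1, the CMP-sialic acid transporter, met it downward. Against siNC, 4 were higher and 6 lower with siPARP1-A, 1 and 8 with siPARP1-B, 4 and 5 with siPARP2-A, and 3 and 10 with siPARP2-B. Over the whole table too, calls were more often lower than higher in these 4 comparisons: 25.5%, 16.4%, 24.5% and 30.9% of all tested genes were higher and 28.9%, 23.9%, 24.9% and 35.2% lower. The list's medians were -0.04, -0.08, -0.05 and -0.25, beside -0.01, -0.03, 0.00 and -0.03 over all genes. SLC35F2 fell by 1.95 and SLC35B2 by 1.24 with siPARP2-B on the log2 scale, and SLC35F6 fell by 1.21 with siPARP1-A. SLC35G1 rose with siPARP1-A (0.92) and siPARP2-A (0.81) and fell with siPARP1-B (-0.62) and siPARP2-B (-0.47). Under the inhibitors the counts were 1 higher and 4 lower with UPF1069, 4 and 6 with olaparib, and 1 and 5 with veliparib. The shares of all genes were 10.3% higher and 14.0% lower, 25.8% and 26.8%, and 17.2% and 23.2%. With olaparib, SLC35A5 (0.58) was the largest rise and SLC35F2 (-0.87) the largest fall.

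Among 7 tested RING ligases that share a protease-associated domain with RNF167, RNF128 met the selection rule as well. RNF128, known as GRAIL, read 0.844 and 1.15 with siNC and, as a description, stood above it by log2 differences of 1.005 with siPARP1-A, 0.77 with siPARP1-B, 1.16 with siPARP2-A and 2.01 with siPARP2-B. Its DMSO values were 2.90 and 3.38, and it is among the 11 genes low with siNC and not with the PARP siRNAs. The list gave 2 higher and 1 lower with siPARP1-A, 4 and 0 with siPARP1-B, 3 and 0 with siPARP2-A, and 4 and 2 with siPARP2-B, with medians of 0.01, 0.37, 0.04 and 1.10 beside -0.01, -0.03, 0.00 and -0.03 over all genes. These counts include RNF128, and the shares of all genes were 25.5% higher and 28.9% lower, 16.4% and 23.9%, 24.5% and 24.9%, and 30.9% and 35.2%. With siPARP2-B, RNF150 (1.44), RNF43 (1.39) and RNF149 (1.10) also rose, and RNF13 (-0.46) and RNF130 (-0.16) fell. RNF149 fell with siPARP1-A (-0.97), and ZNRF3 rose there (0.44). UPF1069 raised RNF150 (0.27). Olaparib raised RNF128 (0.45), RNF130 (0.35) and RNF150 (0.20) and lowered ZNRF3 (-0.18), and veliparib raised RNF13 (0.14) and lowered ZNRF3 (-0.19).

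Of the genes reported as substrates or partners of RNF167, 5 are described and no count over the list is given. VAMP3, an endosomal SNARE that is also in the retrieval list, rose with siPARP2-A (0.51) and siPARP2-B (0.84). SESN2, a leucine sensor of the mTORC1 pathway, rose with siPARP1-A (0.51) and siPARP2-B (1.04), and STAMBPL1, a deubiquitinase, rose with siPARP1-A (0.91), siPARP1-B (0.42) and siPARP2-A (0.39) and met the selection rule. CASTOR1, an arginine sensor, rose with siPARP1-A (0.82) and stood at -0.34, -0.34 and 0.31 with the other sequences, which did not pass. SLC22A18 rose with siPARP2-B (0.37) and stood at -0.21, -0.22 and 0.05 with siPARP1-A, siPARP1-B and siPARP2-A, which did not pass.

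The inhibitors moved these genes in different directions. SESN2 rose with UPF1069 (0.48) and olaparib (0.32) and fell with veliparib (-0.27), and SLC22A18 did likewise (0.25, 0.34 and -0.34). Olaparib also raised VAMP3 (0.13), and veliparib lowered STAMBPL1 (-0.33).

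Of the ENPP family, ENPP1 and ENPP5 were tested in the siRNA table, and both met the selection rule, which 6.19% of all tested genes met. ENPP5, the relative of ENPP4 next to it on chromosome 6, read 20.4 and 17.0 with siNC, 42.9 and 48.6 with siPARP1-A, 22.6 and 22.9 with siPARP1-B, 28.0 and 30.3 with siPARP2-A, and 62.5 and 67.7 with siPARP2-B. All its PARP siRNA libraries were above siNC, siPARP1-B only just. Its limma log2 differences of 1.25, 0.28, 0.62 and 1.75 all passed, in the same libraries that the rule uses. ENPP1, a surface pyrophosphatase, passed with siPARP1-A (0.28), siPARP1-B (0.36) and siPARP2-B (0.59) and stood at 0.14 with siPARP2-A. Of all tested genes, 25.5%, 16.4%, 24.5% and 30.9% were higher than siNC with siPARP1-A, siPARP1-B, siPARP2-A and siPARP2-B. Olaparib raised ENPP5 (0.99) and lowered ENPP1 (-0.24) and ENPP3 (-0.77), and ENPP5 also rose with UPF1069 (0.31) and veliparib (0.20). The shares of all genes were 25.8% higher and 26.8% lower with olaparib, 10.3% and 14.0% with UPF1069, and 17.2% and 23.2% with veliparib.

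Neighbours on the chromosome, by RefSeq order, were called in both directions. Next to RAB9A, TCEANC met the selection rule, though of its differences of 0.24, 0.17, 0.19 and 0.46 only the last passed, with siPARP2-B. OFD1 met the rule downward and TRAPPC2 fell with siPARP1-A (-0.44), siPARP1-B (-0.88) and siPARP2-A (-0.46). Next to SLC35D2, ZNF367 fell by 3.29 with siPARP2-B on the log2 scale and by 0.42 with siPARP1-A, and rose with siPARP2-A (0.34), while HABP4 fell with siPARP1-A (-0.40), siPARP1-B (-0.44) and siPARP2-A (-0.46) and ERCC6L2 fell with siPARP2-B (-0.37). SLC25A11, whose exons overlap those of RNF167, stood at 0.02, -0.35, 0.27 and -0.20, and PFN1 at -0.01, -0.37, 0.04 and 0.33, beside 1.50, 1.32, 1.61 and 2.18 for RNF167. ENO3 stood at -0.28, 0.61, -0.24 and -0.73. Next to ENPP4 besides ENPP5, RCAN2 met the rule downward, and RUNX2 rose with siPARP1-B (1.12) and fell with siPARP2-A (-0.71). EGFL6 and HSD17B3 had no row, GP1BA was tested in the inhibitor table alone, and CLIC5 was not tested.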

How the data were processed

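RNA was sequenced from 18 LNCaP libraries, 2 in each of 9 groups. The inhibitor table holds CPM (counts per 1e6 reads) made by the authors, and the siRNA table holds a deposited normalised signal on a scale near CPM. Of the tools, the submitters' processing notes list HTSeq 0.6.1 and TopHat2 2.1.0 beside edgeR 3.12.0 and bcl2fastq 2.18, and hg19 as the build, without saying what each did. In both deposited tables, 100% of values came out as whole reads within 0.01 read when divided by the worth of 1 read, which gave each library's depth: 26.43 to 35.7 M reads and 15.45 to 18.62 M reads (M, reads times 1e6), with 3 reads worth 0.0841 to 0.1132 and 0.1691 to 0.2072. Depth sets how low a level can be read; it does not cover variation between cultures.

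Genes with a mean of at least 1 were tested, 13337 and 12701. The test was limma 3.58.1 (R 4.3.3) with a mean trend on log2(value + 1), 1 fit per table over all its groups, 2-sided, with Benjamini-Hochberg adjustment over all tested genes and a threshold of 0.05. Differences on this scale understate the change of low genes. With 2 libraries per group, p-values rest on the spread between libraries within groups, pooled over all groups of a table. limma also draws each gene's spread toward a trend over all genes. That trend weighed 17.6 and 19 prior degrees of freedom in the inhibitor and siRNA tables, beside 4 and 5 residual ones. The script was tested on simulated data. The design called for edgeR only where files hold whole counts, so edgeR 4.0.16 and DESeq2 1.42.0 were run on the recovered reads as alternatives. Other alternatives were a pseudocount of 0.1, no filter on low values, TMM and RLE scaling, only the groups compared, the replicate number as a block, and leaving out each library in turn. A correction for GC content and length (splines with 5 degrees of freedom, GENCODE v29) was added after seeing the data.

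The members and the gene lists were chosen with earlier results of these data known. Named genes were the 4 members, PARP1 and PARP2, of each list the 2 largest rises and falls that passed in a comparison (all genes of lists with 8 or fewer measured), the 3 genes most alike to each member, 2 neighbours on each side, the 10 largest gaps and the genes at the rule's threshold. Others named were chosen after their values were seen: the 11 genes low with siNC and not with the PARP siRNAs, AL160269.1, RABEPK, RAB7A, RAB9B and SLC35A1. Symbols absent from the tables were looked up by gene identifier, after which 823 and 703 features had none. Promoter windows came from RefSeq. Results for 2 genes that these rules would name are not reported here.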

Additional observations from a re-analysis of the deposited data

How the results depend on the processing

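Of 636 tested alternatives over the members' comparisons, 608 stayed on the same side of the threshold, 19 lost the call, 8 gained a call and 1 passed in the reverse direction. Differences that did not pass could change sign within the 608. ENPP4 with veliparib against DMSO did so, from 0.08 to -0.02 with the correction for GC content and length. The reversal was ENPP4 with UPF1069 against veliparib, at -0.1343 without veliparib replicate 2 and 0.1543 without veliparib replicate 1, beside 0.01. The number of the 4 genes called with UPF1069 against DMSO, 2, was 1 with DESeq2 and 0 to 2 when each library was left out. With veliparib against DMSO, 2, it was 1 to 3 when each library was left out and 1 with the correction for GC content and length, which also gave 4 in place of 2 for UPF1069 against veliparib and 3 in place of 1 for the PARP2 against the PARP1 sequences. The rule's 786 genes became 1262 to 1301 without 1 siNC library, which loosens the rule by construction. With TMM over all 18 libraries, siNC minus DMSO was -1.147 for RAB9A, -0.8043 for SLC35D2, -1.423 for RNF167 and 0.04473 for ENPP4, which reversed, and the PARP siRNA mean minus DMSO was 0.8518 for RAB9A. By percentile rank within a library, ENPP4 with siNC also reversed, at 2.935 points. Beyond fewer samples or scaling, the cause was not tested. Replicate numbers did not pair the samples (correlation of deviations -0.0598 to 0.0297 and -0.141 to 0.115), and with the replicate block the members called were 2, 3 and 2 for UPF1069, olaparib and veliparib against DMSO, with no member's call changed in any comparison. In the siNC libraries, 156 to 730 reads per gene limit the 4 genes' precision. Over all tested genes, the siNC duplicates also differed most from each other. The chi-square between the read counts of duplicates averaged 8.04 per gene for siNC and 1.31 to 6.38 for the other groups.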
